A study of Mus musculus with 17 samples.

Results

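Tissue residency transcription factors are nuclear proteins that hold T cells in a tissue or shape how they behave there. The set of 6 was defined by name as Bhlhe40, Crem, Prdm1, Runx3, Nr4a2 and Zfp683. Of these, 5 were followed here among the 24537 genes of each table, and Zfp683, which encodes Hobit, was not analysed here. Their rows were found by symbol in the annotation column.

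The study made 17 RNA libraries in 6 groups from flow-sorted mouse T cells by Smart-seq2, which copies whole transcripts from few cells. Reporter mice, labelled GATIR, carry YFP under Gata3, the Th2 master regulator, and were labelled wild type. They gave Th2 cells of the bronchoalveolar lavage, here called airway cells (3 libraries), and of the lung-draining mediastinal node (3 libraries). OTII mice, whose CD4 T cells share 1 transgenic receptor for an ovalbumin peptide, gave Th2 cells of the same node labelled Notch1/2 knockout (4 libraries) or wild type (3 libraries). The reporter mice and the OTII mice behind the lymph node libraries had an allergen-driven airway inflammation, and the headers of the OTII lymph node columns add OVA-HDM. OTII mice also gave cultured cells, labelled Notch1/2 knockout (2 libraries) or wild type (2 libraries). These began as naive spleen T cells and spent 7 days on plates with anti-CD3/CD28 and IL-4, plus neutralising antibodies to IL-12/23 and to IFN-γ. The labels name neither the Cre driver behind the knockout nor the age of the mice. They do not say whether replicates are separate animals, so p-values measure only the spread between these libraries, which may be technical.

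Resident memory T cells stay in barrier tissues in place of recirculating through lymph and blood. The program is best known from CD8 T cells. In those cells, Blimp-1 (encoded by Prdm1) and Hobit repress genes for tissue exit, and Runx3 supports residence. Bhlhe40 sustains metabolism and cytokine output of T cells in tissues, Crem encodes repressors and activators that answer cyclic AMP, and Nr4a2 is an orphan nuclear receptor induced by antigen receptor signals. Notch signalling, which acts in the nucleus through Rbpj, has itself been tied to the upkeep of resident T cells.

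The tables held 16.3 to 27.5 M (megareads) per library. Levels are given as scaled RPKM, that is the deposited RPKM (reads divided by transcript length and library total) over 1 factor per library. All 8 T cell markers had a mean of at least 1 in every group, with sums of 2347 to 5016. The 13 macrophage markers summed to 3073, 7335 and 3138 in the 3 airway libraries, against 1.38, 45.3 and 10.4 in lymph node reporter libraries, where 7 of the 13 were at 0 throughout (Marco, Mrc1, Ear2, Adgre1, Itgax, Clec7a and Lpl). They summed to at most 10.5 in any OTII library. The 7 basophil and mast cell markers summed to 179 to 319 in airway libraries and to 593 to 915 in lymph node reporter libraries. Of these, Mcpt8, Hdc and Cd200r3 had a mean of at least 1 in both groups, and Cpa3 in the node only. Fcer1a, Ms4a2 and Gata2 were at 0 in both. Replicate libraries correlated at r = 0.791 to 0.883 across genes in the airway, at 0.940 to 0.961 in the reporter lymph node and at 0.986 to 0.995 in the OTII groups. Of the targeted receptors, Notch1 had 8.01 to 13.0 in knockout-labelled lymph node libraries and 46.2 to 48.9 in wild type ones, and 1.06 and 4.23 against 26.3 and 29.4 in culture. Notch2 went against the label in the node, at 14.1 to 18.7 in knockout-labelled libraries and 7.53 to 8.08 in wild type ones. A level over a whole transcript does not test a deletion of single exons, so the libraries are called knockout-labelled.

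Each member had 1 row, under 1 RefSeq transcript that was identical in all 17 tables (mm10). The Crem row (NM_001110855) covers chr18:3266354-3281747 on the minus strand. It begins 56001 bases inside the gene as GENCODE vM21 draws it, and the table lists ICER, the inducible cAMP early repressor, among its aliases. Reads from exons that this transcript shares with the gene's other transcripts, 39 in all in GENCODE, cannot be told apart.

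Bhlhe40 (NM_011498) lies at chr6:108660629-108666925 on the plus strand, Prdm1 (NM_007548) at chr10:44437174-44458748 on the minus strand, Runx3 (NM_019732) at chr4:135120645-135177990 on the plus strand and Nr4a2 (NM_001139509) at chr2:57107226-57124003 on the minus strand. The Prdm1 transcript starts 69753 bases inside its GENCODE gene. Bhlhe40 shares 118 exonic bases with an antisense gene, 0610040F04Rik, whose own level was 1.51 to 10.1. The sources used here do not say whether counting used strand.

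Promoters of 3 members are shown, searched for motifs that belong to factors of this set or to Notch. Those of Crem and Bhlhe40 are not reported here. Each run is the 250 bases before the start of the row's transcript, from RefSeq's promoter table on GRCm38.p6. They were searched on both strands for TGACG (a cAMP response element half-site, bound by Crem's family), CACGTG (the E-box of the Bhlhe40 family), TGTGGT (the Runt core), AGGTCA (a nuclear receptor half-site) and TGGGAA (the core that Rbpj binds). No match overlapped another. Capitals mark the matches, each printed as it reads on the gene's strand. The first is chr2:57124004-57124253 (minus strand), the second chr4:135120395-135120644 (plus strand) and the third chr10:44458749-44458998 (minus strand).
Nr4a2: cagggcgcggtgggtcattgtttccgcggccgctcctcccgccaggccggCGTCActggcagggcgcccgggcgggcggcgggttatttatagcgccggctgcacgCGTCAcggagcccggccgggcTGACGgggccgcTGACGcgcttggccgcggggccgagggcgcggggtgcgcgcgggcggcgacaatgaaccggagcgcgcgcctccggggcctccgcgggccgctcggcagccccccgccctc
Runx3: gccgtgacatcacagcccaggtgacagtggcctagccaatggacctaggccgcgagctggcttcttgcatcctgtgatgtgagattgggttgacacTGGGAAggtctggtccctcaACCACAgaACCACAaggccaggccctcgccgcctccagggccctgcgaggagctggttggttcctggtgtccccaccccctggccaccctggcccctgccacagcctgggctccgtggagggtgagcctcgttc
Prdm1: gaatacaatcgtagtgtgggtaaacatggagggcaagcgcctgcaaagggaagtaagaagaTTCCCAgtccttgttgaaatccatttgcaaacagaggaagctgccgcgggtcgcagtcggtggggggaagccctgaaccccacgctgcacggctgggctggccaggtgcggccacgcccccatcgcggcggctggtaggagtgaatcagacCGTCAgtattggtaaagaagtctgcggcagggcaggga
The Nr4a2 window held 4 cAMP half-sites, at -200, -144, -123 and -111 from the start. The Runx3 window held 2 Runt cores at -134 and -126 and an Rbpj core at -154. The Prdm1 window held an Rbpj core at -189 and a cAMP half-site at -38. A second RefSeq window of Runx3, at chr4:135152295-135152544, held none of these letters. Among 32851 windows of this length, TGACG occurred in 17.8%, TGTGGT in 14%, TGGGAA in 21.6%, AGGTCA in 14% and CACGTG in 6.02%. A match describes the letters only and is not a bound site.

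The 5 factors did not move as a group, and each had its own order over the 6 groups. Crem spanned the widest range of group means, 32.8-fold, with the highest level in airway cells and the lowest in wild type lymph node OTII cells. Bhlhe40 spanned 6.04-fold, Prdm1 4.54-fold, Nr4a2 4.26-fold and Runx3 3.31-fold. Bhlhe40 and Crem peaked in the airway, Prdm1 in both reporter groups, Runx3 in culture and Nr4a2 in the knockout-labelled lymph node cells. Levels of reporter and OTII libraries are set side by side as a description. Mouse line, sort and library set differ together between them and cannot be told apart.

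**Figure D1:**
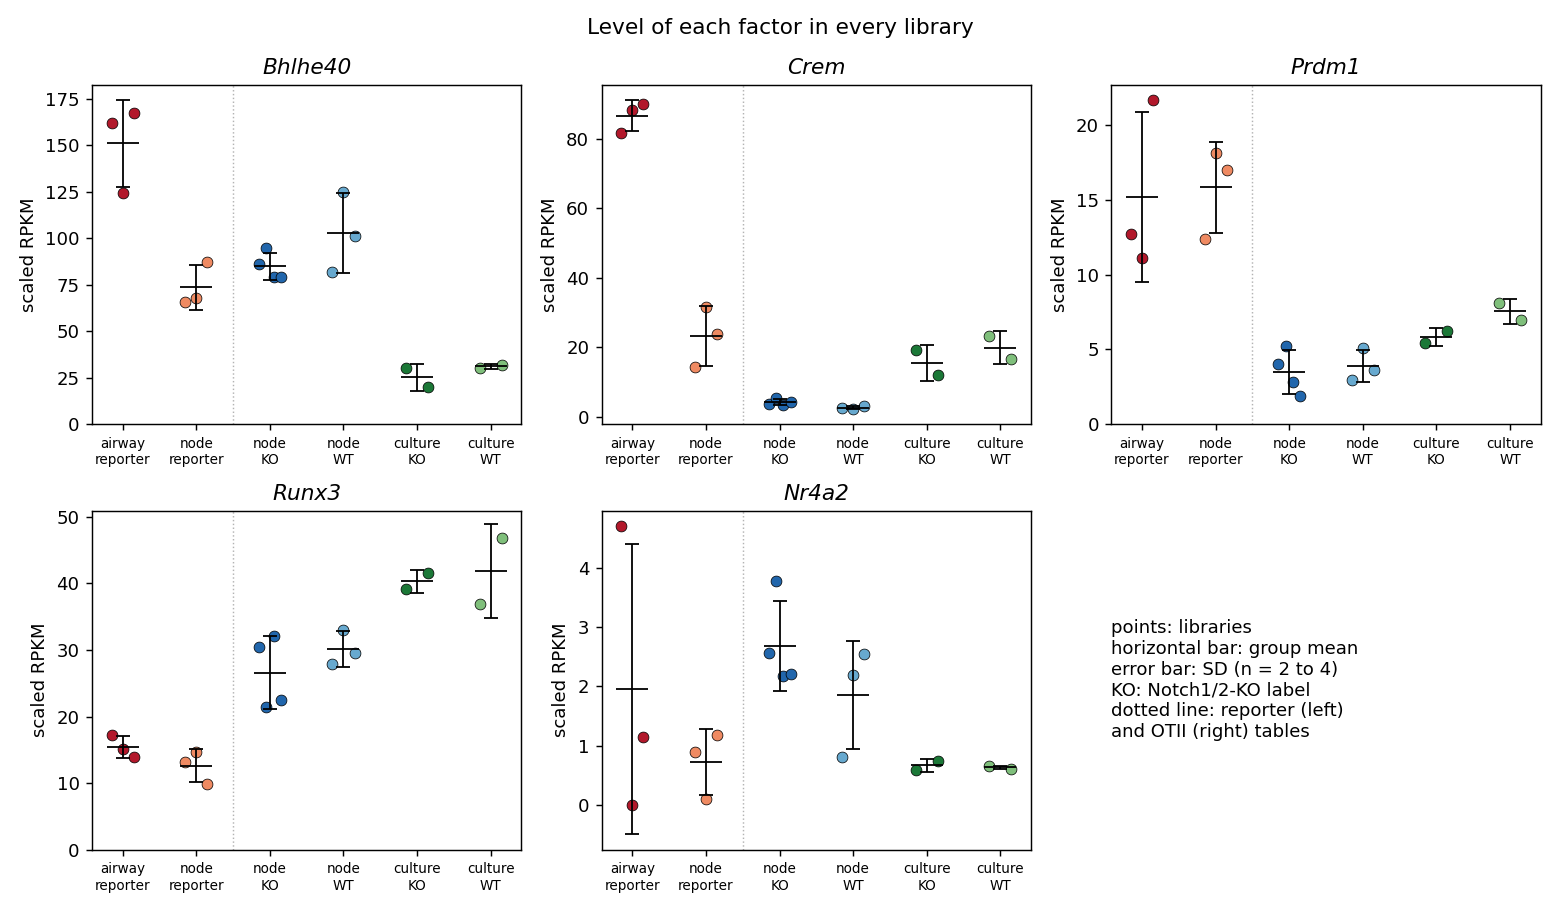
Scaled RPKM of the 5 factors in the 17 libraries, 1 point per library, with group means (long bars) and SD (error bars, n = 2 to 4). Axes are linear, reach down to 0 or below and have a scale of their own for each gene. The airway libraries sit above all others for Crem and reach the top of the Bhlhe40 panel, while the culture libraries are lowest for Bhlhe40 and highest for Runx3.

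Airway cells were compared with lymph node cells of the same reporter line, which asks how sorted Th2 cells of the 2 sites differ. Bhlhe40 and Crem rose and the other 3 factors did not pass. That makes 2 of 5 members, against 5.27% of the 10111 genes tested past the threshold in either direction and 2.97% called higher (limma on log2 values, Benjamini-Hochberg adjusted p below 0.05). Of the called genes 300 were higher and 233 lower, a split that turned to 229 and 317 on unscaled RPKM.

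Bhlhe40, a basic helix-loop-helix repressor of Il10 among other genes, had 162, 124 and 167 scaled RPKM in the 3 airway libraries, against 65.6, 67.8 and 87.2 in the lymph node reporter libraries. Every airway library lay above every lymph node library, as for 13.1% of genes tested. The means were 151 ± 23.5 and 73.6 ± 11.9 (SD, n = 3 each), a 2.06-fold difference, and the log2 fold change was 1.03 (SE 0.19, limma adjusted p = 0.0181). Leaving out airway replicate 3 ended the call (limma adjusted p = 0.0557), as did leaving out node replicate 1, 2 or 3 (0.0985, 0.0931 and 0.0546), with log2 fold changes of 0.95 to 1.16.

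Crem had the larger change. Its level was 81.6, 88.3 and 90.1 scaled RPKM in airway libraries, against 14.2, 31.5 and 23.8 in lymph node reporter libraries. The lowest airway value lay far above the highest lymph node value, and the airway libraries lay close together. Means were 86.7 ± 4.46 and 23.2 ± 8.65 (SD, n = 3 each), a 3.74-fold difference. The log2 fold change was 1.93 (SE 0.29, limma adjusted p = 0.00806), and all 11 other settings kept the call (1.63 to 2.17, highest adjusted p = 0.0469).

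Macrophage sums moved with both calls, since they set the airway libraries apart. Dendritic cell markers (14.5 to 32.9 against 2.19 to 4.07) and neutrophil markers (3.79 to 17.1 against 0) did so too. T cell markers also summed higher in the airway (4412 to 5016 against 3769 to 4083). Basophil and mast cell sums were lower there, as given above. Airway replicate 2 had the highest macrophage sum (7335), the lowest Bhlhe40 of its group (124) and a middle Crem value (88.3). Without that library the log2 fold changes were 1.16 for Bhlhe40 (limma adjusted p = 0.0168) and 1.91 for Crem (limma adjusted p = 0.0210). The remaining airway libraries still summed to 3073 and 3138 on the macrophage list. The part of this and the other separating lists in the result was not tested. In bulk libraries, fewer cells that express a gene and less RNA per cell cannot be told apart.

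The other 3 factors had overlapping ranges. Prdm1, whose product Blimp-1 is a zinc finger repressor of effector cells, had 12.7, 11.1 and 21.7 in airway libraries, against 12.4, 18.2 and 17 in lymph node reporter libraries (log2 fold change -0.09, limma adjusted p = 0.921). Its airway libraries held both the lowest and the highest of the 6 values. Runx3, a Runt domain factor that silences Cd4 in CD8 T cells and Il4 in Th1 cells, had 17.2, 15.1 and 13.9 in airway libraries, against 13.2, 14.8 and 9.95 in lymph node reporter libraries (log2 fold change 0.28, limma adjusted p = 0.706). The 95% intervals of these log2 differences ran from -0.92 to 0.73 for Prdm1 and from -0.47 to 1.02 for Runx3, so changes up to about these sizes were not resolved.

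Nr4a2 was near the limit of detection in reporter cells and varied most. It had 4.71, 0 and 1.15 scaled RPKM in airway libraries, from 250, 0 and 66 reads, against 0.884, 0.104 and 1.17 in lymph node reporter libraries, from 57, 6 and 71 reads. Airway replicate 1 alone held most of the signal, and a count of 0 in airway replicate 2 allows a level of up to 0.0516 (3 reads, counting error only). The log2 fold change was 0.48 (SE 0.68, limma adjusted p = 0.754), and its sign turned without airway replicate 1 (-0.17).

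**Figure D2:**
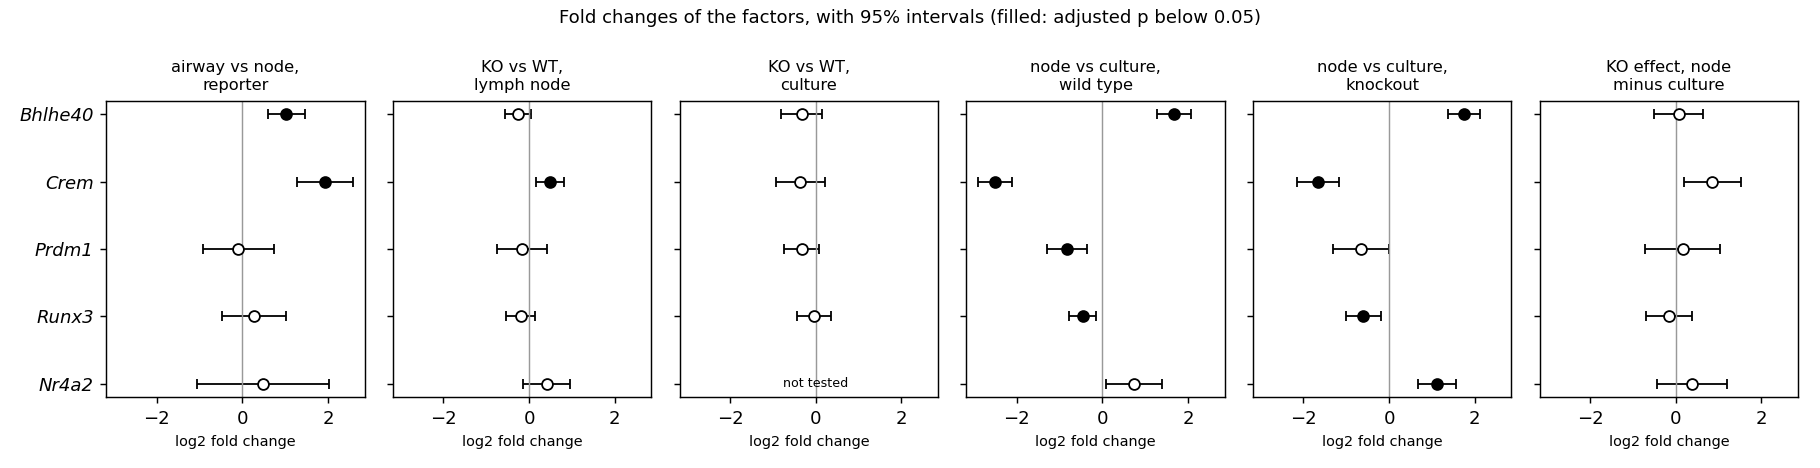
Log2 fold changes (x axes) of the 5 factors in each comparison, with 95% intervals from limma as bars and filled points for adjusted p below 0.05. Filled points appear for Bhlhe40 and Crem in the airway panel, for Crem in the lymph node knockout panel and for 4 of 5 factors in each panel of lymph node against culture.

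Knockout-labelled and wild type OTII cells of the lymph node were compared next, to ask which factors differ where Notch receptors are targeted. Of the 5 members, 1 was called, Crem, which was higher in knockout-labelled cells. Among the 10869 genes tested, 18.1% were called in either direction and 10.4% higher, so 1 of 5 is near the background. Crem had 3.58, 5.45, 3.46 and 4.24 scaled RPKM in knockout-labelled libraries, against 2.64, 2.33 and 2.96 in wild type libraries. The ranges did not overlap, as was the case for 31.2% of all genes tested. Means were 4.18 ± 0.910 (SD, n = 4) and 2.64 ± 0.318 (SD, n = 3), a 1.58-fold difference (log2 fold change 0.50, SE 0.15, limma adjusted p = 0.0456). The call is fragile: 6 of 16 other settings kept it, with adjusted p of 0.0227 to 0.217. Crem was higher within both genotypes, in the libraries whose sample name in the column header ends in -2 and not in -1, and a block by that number gave a log2 fold change of 0.45 (limma adjusted p = 0.0227). It was lost without wild type replicate 1, 2 or 3 (limma adjusted p = 0.112, 0.176 and 0.0848) or knockout-labelled replicate 4 (0.105). Macrophage markers summed to 3.89 to 7.79 in these knockout-labelled libraries and to 7.82 to 10.5 in wild type ones. The 5 CD8 and NK cell markers summed to 4.08 to 5.22 and 7.25 to 9.75, the 7 basophil and mast cell markers to 0.134 to 0.713 and 2.32 to 2.72, and the 4 epithelial markers to 0.885 to 1.97 and 0.472 to 0.685. These sums also separated the genotypes, and their part in the result was not tested. The levels of Crem itself, in both genotypes, stayed under those of every airway, reporter lymph node and culture library.

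Bhlhe40 did not pass in this comparison. Its level was 86.3, 94.7, 79.3 and 79.3 scaled RPKM in knockout-labelled libraries, against 81.9, 125 and 101 in wild type libraries (log2 fold change -0.26, 95% interval -0.56 to 0.05, limma adjusted p = 0.234). Of the 4 knockout-labelled values 2 lay within the wild type range and 2 just below it. Prdm1 had 4.02, 5.24, 2.84 and 1.86 in knockout-labelled libraries, against 2.93, 5.09 and 3.63 in wild type libraries (log2 fold change -0.16, limma adjusted p = 0.722), and the knockout-labelled range enclosed the wild type one.

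Runx3 had 30.4, 21.5, 32.1 and 22.5 scaled RPKM in knockout-labelled lymph node libraries, against 27.9, 33.1 and 29.5 in wild type libraries (log2 fold change -0.19, 95% interval -0.53 to 0.15, limma adjusted p = 0.415). The knockout-labelled libraries formed a high pair (replicates 1 and 3) and a low pair (2 and 4). The sample names of the high pair end in -1 and those of the low pair in -2, a numbering that the labels do not explain. Nr4a2 had 2.56, 3.79, 2.17 and 2.22 in knockout-labelled libraries, against 0.815, 2.18 and 2.55 in wild type libraries (log2 fold change 0.41, 95% interval -0.14 to 0.96, limma adjusted p = 0.285). Only wild type replicate 1 lay clearly below the rest, and the ranges overlapped.

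In culture no member passed, and neither did any of the 10968 genes tested (0% called by limma). At an unadjusted p below 0.05 there were 256 genes (2.33%), and voom on reads recovered from the RPKM values called 2, none of them a member. No member reached an unadjusted p of 0.05. Bhlhe40 had 30.2 and 19.9 scaled RPKM in knockout-labelled cultures, against 30.2 and 32.0 in wild type cultures (log2 fold change -0.33, 95% interval -0.81 to 0.15). Crem had 19.2 and 11.9, against 23.3 and 16.6 (log2 fold change -0.36, interval -0.94 to 0.22). Knockout-labelled replicate 2 was the lowest of the 4 cultures for both genes.

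Prdm1 was the 1 member whose culture ranges did not overlap, at 5.40 and 6.25 in knockout-labelled cultures, against 8.13 and 6.93 in wild type cultures (log2 fold change -0.32, interval -0.73 to 0.09), and 21.2% of genes tested showed such a gap. Runx3 had 39.1 and 41.5 in knockout-labelled cultures, against 36.9 and 46.9 in wild type cultures (log2 fold change -0.04). The limma adjusted p was 1 for all 4 of these genes. Nr4a2 was too low to be tested, at 0.581 and 0.747 in knockout-labelled cultures and 0.653 and 0.608 in wild type cultures.

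The difference between the knockout effects in lymph node and culture was tested itself. No member passed, against 3.84% of the 11508 genes tested (442 genes by limma). Crem alone had an unadjusted p below 0.05, and voom called no member either. Crem came closest, with a knockout-labelled mean that was higher in the node and, with overlapping ranges, lower in culture. For Crem the difference was 0.85 log2 units (SE 0.30, unadjusted p = 0.0170, limma adjusted p = 0.161). Over 18 other settings its adjusted p ran from 0.0762 to 0.501. For Bhlhe40, Prdm1, Runx3 and Nr4a2 the differences were 0.07, 0.16, -0.15 and 0.38 log2 units, with limma adjusted p of 0.898, 0.846, 0.768 and 0.608.

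Lymph node OTII cells differed from cultured OTII cells in most of the factors. In both genotypes Bhlhe40 rose in the node, and Crem and Runx3 fell. Prdm1 fell in wild type cells and did not pass in knockout-labelled ones, while Nr4a2 rose in knockout-labelled cells and did not pass in wild type ones. In wild type cells 4 of 5 members passed, against 31.0% of 11108 genes tested. In knockout-labelled cells 4 of 5 passed, against 29.0% of 11227 genes. These 4 include Nr4a2, which was tested only through the node libraries where it was high, so 3 passed apart from it. No member's ranges overlapped in either genotype, which held for 57.9% of genes in wild type and 49.7% in knockout-labelled cells. The 2 comparisons share no library. The mode of activation, the tissue and the time since activation differ together between node and culture and cannot be told apart. Some marker sums also separated node from culture in both genotypes. Macrophage sums were 3.89 to 10.5 against 0.621 to 1.42, and basophil and mast cell sums 0.134 to 2.72 against 5.72 to 16.1. T cell sums were 3093 to 3887 against 2347 to 2878, and dendritic cell sums 0.262 to 0.604 against 0.728 to 1.71. The part of these transcripts in the result was not tested.

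Bhlhe40 rose in node cells to 84.9 ± 7.30 (SD, n = 4), against 25.1 ± 7.25 (n = 2) in knockout-labelled cultures, a 3.39-fold difference (log2 fold change 1.75, SE 0.16, limma adjusted p = 0.000163). In wild type cells it averaged 103 ± 21.5 (n = 3) in the node and 31.1 ± 1.33 (n = 2) in culture, a 3.30-fold difference (log2 fold change 1.67, SE 0.17, limma adjusted p = 0.000384). The lowest lymph node library, at 79.3, lay far above the highest culture, at 32.0, and every other setting kept both calls.

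Crem went the other way. In wild type cells it fell to 2.64 ± 0.318 in the node, against 19.9 ± 4.70 in culture (log2 fold change -2.51, SE 0.17, limma adjusted p = 6.61e-05). In knockout-labelled cells it averaged 4.18 ± 0.910 in the node and 15.5 ± 5.19 in culture (log2 fold change -1.65, SE 0.22, limma adjusted p = 0.000933). The highest lymph node library had 5.45 and the lowest culture 11.9. Every other setting kept both calls. Across the 17 libraries Crem and Bhlhe40 therefore did not follow each other: both were high in the airway, Bhlhe40 alone was high in OTII lymph node cells, and in culture Bhlhe40 was at its lowest while Crem was intermediate.

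**Figure D3:**
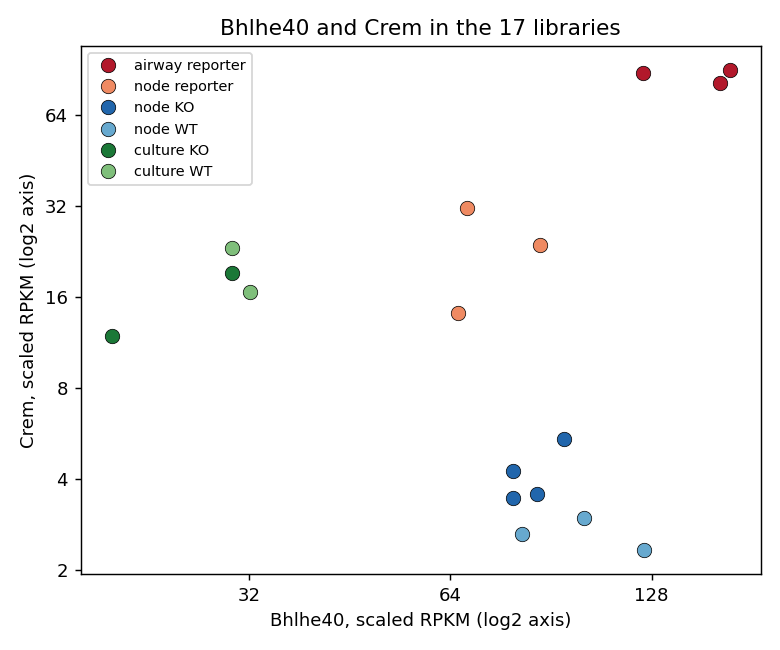
Bhlhe40 (x axis) against Crem (y axis) in the 17 libraries, scaled RPKM on log2 axes, coloured by group. The airway libraries lie at the upper right, the OTII lymph node libraries at the lower right with Crem of 2.33 to 5.45, and the cultures at the left with Bhlhe40 of 19.9 to 32.0.

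Prdm1 fell in wild type node cells to 3.88 ± 1.10, against 7.53 ± 0.845 in culture (log2 fold change -0.82, SE 0.20, limma adjusted p = 0.0175). Leaving out node replicate 1 or culture replicate 1 ended the call (limma adjusted p = 0.0537 and 0.0938). In knockout-labelled cells it averaged 3.49 ± 1.46 in the node and 5.82 ± 0.603 in culture and did not pass (log2 fold change -0.66, limma adjusted p = 0.119), but it did without lymph node replicate 2 (log2 fold change -0.84, limma adjusted p = 0.0234). All 11 OTII libraries were under the 6 reporter libraries, whose lowest value was 11.1.

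Runx3 was lower in the node than in culture by a small step. Knockout-labelled cells had 26.6 ± 5.43 in the node and 40.3 ± 1.71 in culture (log2 fold change -0.60, SE 0.18, limma adjusted p = 0.0345), and wild type cells had 30.2 ± 2.63 and 41.9 ± 7.10 (log2 fold change -0.45, SE 0.14, limma adjusted p = 0.0389). The wild type call ended without node replicate 1, 2 or 3 or culture replicate 2 (limma adjusted p = 0.127, 0.0581, 0.105 and 0.118). The knockout-labelled call ended without node replicate 4 or either culture (limma adjusted p = 0.0835, 0.143 and 0.201). Both calls also ended without the filter (limma adjusted p = 0.0678 for knockout-labelled and 0.0717 for wild type cells). Every OTII library was above every reporter library, the opposite of Prdm1.

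Nr4a2 rose in knockout-labelled node cells to 2.68 ± 0.756, against 0.664 ± 0.117 in culture (log2 fold change 1.13, SE 0.19, limma adjusted p = 0.00340), and every other setting kept the call. In wild type cells it averaged 1.85 ± 0.914 in the node and 0.631 ± 0.0319 in culture and did not pass (log2 fold change 0.75, limma adjusted p = 0.0807). Without lymph node replicate 1, at 0.815, it did (log2 fold change 1.04, limma adjusted p = 0.00639). Nr4a2 met the minimum level for testing only through the lymph node libraries, since all 4 cultures were under 1.

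Ordered by mean, neighbouring groups often overlapped. For Bhlhe40 the order was airway, wild type node, knockout-labelled node, reporter node, wild type culture and knockout-labelled culture, and the 1 gap between neighbours fell between the reporter node and the cultures. For Crem it was airway, reporter node, wild type culture, knockout-labelled culture, knockout-labelled node and wild type node, with gaps after the airway, after the cultures and between the OTII node groups. For Prdm1 the order was reporter node, airway, wild type culture, knockout-labelled culture, wild type node and knockout-labelled node, and its first and last pairs overlapped. For Runx3 it was wild type culture, knockout-labelled culture, wild type node, knockout-labelled node, airway and reporter node, with gaps between culture and node and between OTII and reporter cells. For Nr4a2 every neighbouring pair overlapped. Per unit of transcript length, Bhlhe40 was the most abundant factor in every group except culture, where Runx3 was. In airway cells Bhlhe40 ranked 441 of 24537 genes by mean level, Crem 865, Runx3 4170, Prdm1 4203 and Nr4a2 9084.

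Genes around the factors were described with 5 lists, chosen with earlier results of these data known, so their counts are descriptions only. Their counts stand beside calls for 5.27% of all genes tested in the airway comparison, 18.1% in the lymph node knockout comparison, and 29.0% and 31.0% in node against culture for knockout-labelled and wild type cells. A gene under 1 in every library of 1 group was tested only through the other group, where it was high. That held for Klf2 in the airway and for Il2, Xcl1 and Cx3cr1 in the lymph node knockout comparison. In node against culture it held for Nr4a3, Csf2, Cxcr5, Hpgds and Itga1 in both genotypes. There it also held for Ifng, Il2 and Xcl1 in knockout-labelled cells and for Cx3cr1 in wild type ones. The calls of these genes support no statement about a list. Among 12 relatives and partners, the Nr4a paralogs had higher means in the node than in culture, as Nr4a2 had. They parted in the lymph node knockout comparison, where Nr4a1 did not pass (log2 fold change -0.14, limma adjusted p = 0.641) and Nr4a3 did. Nr4a1 was higher in the node than in culture in both genotypes, at 46.2 ± 9.72 against 2.15 ± 0.256 in knockout-labelled cells and 50.5 ± 8.50 against 2.51 ± 0.397 in wild type cells (log2 fold changes 3.88 and 3.86, limma adjusted p = 9.71e-06 and 1.28e-05). Nr4a3 averaged 9.40 ± 2.26 in knockout-labelled node cells and 4.08 ± 0.552 in wild type ones (log2 fold change 1.01, limma adjusted p = 0.00587). It was at or under 0.233 on average in both cultures. Rbpj, the DNA-binding partner of Notch, averaged 107 ± 18.3 in knockout-labelled node cells and 37.4 ± 4.91 in wild type ones (log2 fold change 1.49, limma adjusted p = 0.000205). The other list members in that comparison, among them the Runx3 partner Cbfb and Creb1, did not pass (2 higher, 0 lower of 11 tested, a share near the 18.1% of all genes). In the airway 0 of 10 tested passed by limma or by voom, and Rbpj was the 1 with an unadjusted p below 0.05 (log2 fold change 0.86, limma adjusted p = 0.0971). The list's median log2 fold change was 0.18 in the lymph node knockout comparison (0.02 over all genes tested) and -0.03 in the airway (-0.07 over all genes tested).

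The list called opposing factors held 11 genes, and the name was chosen here and not tested for each gene. Klf2, which switches on S1pr1, was the 1 called in the airway (lower; 10 tested, list median -0.36), at 0.340 ± 0.562 against 7.35 ± 2.82 in the reporter node. Klf2 was tested only through the node libraries, and that call was lost under 8 of 11 other settings. In the knockout-labelled node Klf2, Klf3 and Bach2 fell and Tbx21, the Th1 factor T-bet, rose (10 tested, list median -0.20). Klf3 averaged 3.35 ± 0.926 there and 18.2 ± 2.25 in wild type cells, and Tbx21 53.2 ± 10.8 and 24.5 ± 3.65 (limma adjusted p = 5.90e-05 and 0.00229). Of node against culture, 3 rose and 4 fell in knockout-labelled cells, and 5 rose and 1 fell in wild type cells (11 tested each). Eomes, a relative of Tbx21, fell in both, to 1.14 ± 0.585 in the wild type node against 14.9 ± 4.77 in culture.

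Of 19 residency-associated genes, 16 were tested in the airway and 9 rose, none fell (Rgs1, Rgs2, Cxcr6, Icos, Ccr8, Cd69, Litaf, Skil and Isg20; list median 1.12, all genes -0.07). Without lymph node replicate 2 the count was 5. In the knockout-labelled node 11 of 16 rose and 1 fell (list median 0.69, all genes 0.02). The risen genes were Cd101, Ccr8, Litaf, Itgae, Dusp6, Isg20, Inpp4b, P2rx7, Rgs2, Skil and Xcl1, and Icos fell. Xcl1 was tested only through the knockout-labelled libraries, so 11 calls in either direction remained apart from it. The surface protein gene Cd101 averaged 14.7 ± 2.22 in knockout-labelled cells and 3.85 ± 0.612 in wild type cells (log2 fold change 1.70, limma adjusted p = 9.04e-05), and Litaf averaged 33.9 ± 4.52 and 14.9 ± 2.34 (1.14, limma adjusted p = 0.000618). Cd69, the classic residency marker, did not pass there (log2 fold change 0.10, limma adjusted p = 0.789). In culture 0 of 15 passed by limma or by voom, and 2 had an unadjusted p below 0.05. Both the airway cells and the knockout-labelled node cells held called genes of this list. Of the factors only Crem was called higher in both, and its call in the knockout-labelled node was fragile, as given above. The airway libraries carried macrophage transcripts throughout, as given above, and their part in the list's counts was not tested.

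The 8 circulation genes showed 4 lower (Ccr7, S1pr1 and S1pr4 among them) and 2 higher (Ly6c2 and Cx3cr1) of 6 tested in the knockout-labelled node (list median -0.91). Cx3cr1 was tested only through the knockout-labelled libraries, so 5 calls remained apart from it. Ccr7, the receptor that guides cells into and keeps them in nodes, averaged 26.4 ± 2.20 in knockout-labelled node cells and 69.7 ± 4.49 in wild type ones. In the airway 0 of 7 passed by limma or by voom, and 2 had an unadjusted p below 0.05. Of 10 genes reported as targets of the factors, Il2 and Ifng rose and Gzmb, Il10 and Il4 fell in the knockout-labelled node (5 of 8 tested, and 3 without wild type replicate 2 or 3). Il10, a gene that Bhlhe40 represses, averaged 1.03 ± 1.36 in knockout-labelled and 12.0 ± 5.15 in wild type node cells (limma adjusted p = 0.00283). Il2, which the Crem product ICER represses, averaged 4.84 ± 1.23 and 0.395 ± 0.0460, with at most 9 reads in a wild type library, and was tested only through the knockout-labelled libraries. Apart from Il2, 4 calls of this list remained. In the airway Gzmb and Il4 fell (2 of 7 tested, and 1 without lymph node replicate 2 or 3), where the basophil and mast cell sums were lower too. Fcer1a, Ms4a2 and Gata2 were at 0 in both groups, and the sums came from Mcpt8, Hdc, Cd200r3 and, in the node, Cpa3. The part of these transcripts in the result was not tested.

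**Figure D4:**
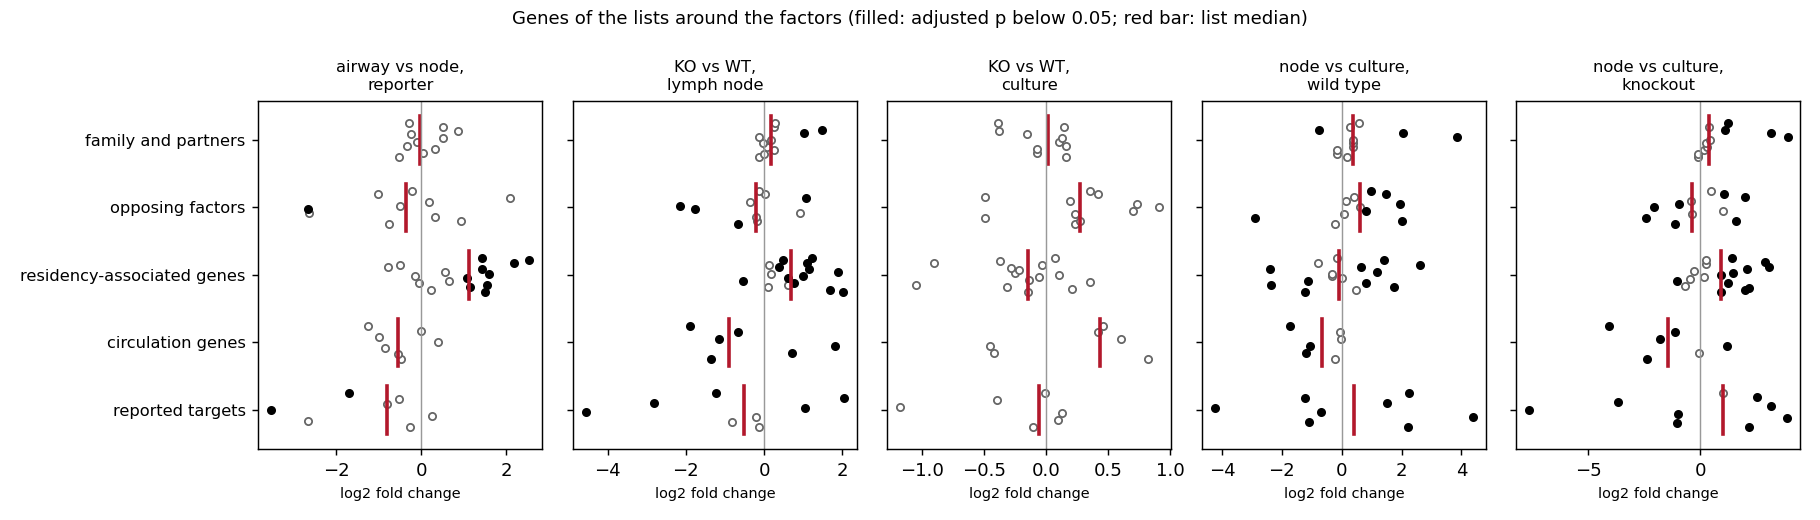
Log2 fold changes (x axes, scaled per panel) of the tested genes of 5 lists, 1 point per gene, filled for adjusted p below 0.05, with the list median as a red bar. Residency-associated genes have medians of 1.12 in the airway panel and 0.69 in the lymph node knockout panel, and no point is filled in the culture knockout panel.

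Genes among the 3 whose log2 levels followed each factor most closely over the 17 libraries were named by a fixed rule among 7327 genes with a mean of at least 5. The libraries share groups, mouse lines and depth, so the coefficients are descriptions. For Bhlhe40 they included Gsap (r = 0.940, and 0.946 over the 11 OTII libraries) and Casp4 (0.939 and 0.918). For Crem they were the nucleotide-sugar receptor gene P2ry14 (0.969 and 0.946), Rab19 (0.969 and 0.970) and Rsrp1 (0.967 and 0.967). P2ry14 averaged 36.2 ± 3.29 in the airway and 4.70 ± 1.53 in the reporter node, and 0.212 and 0.210 in the knockout-labelled and wild type OTII node.

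For Prdm1 the closest genes were the metalloprotease gene Adam8 (0.947, and 0.862 over the OTII libraries), Tmbim4 (0.940 and 0.689) and Havcr2, which encodes the inhibitory receptor Tim-3 (0.934 and 0.745). Havcr2 averaged 11.7 ± 5.06 in the airway and 15.2 ± 1.91 in the reporter node, against 0.829 to 5.30 as OTII group means. For Runx3 they included Treml2 (0.960 and 0.838) and Rnf19b (0.953 and 0.861). For Nr4a2 the coefficients were lower: Spock2 (0.833 and 0.850), Hspa4l (0.828 and 0.788) and Ttpal (0.821 and 0.810). Spock2 averaged 20.1 ± 4.70 in the knockout-labelled OTII node and 5.18 ± 0.0153 in the wild type one.

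Among the factors themselves the coefficients depended on the libraries taken. Crem and Bhlhe40 had r = 0.107 over 17 libraries and -0.905 over the 11 OTII libraries, where node and culture separate them. Crem and Prdm1 had 0.839 and 0.732, and Bhlhe40 and Nr4a2 0.449 and 0.820. Runx3 was the 1 factor with a negative coefficient to Bhlhe40 in both sets (-0.614 and -0.737).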

How the data were processed

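Values are RPKM as deposited by the authors, 1 table per Smart-seq2 library (17), each gene under 1 RefSeq transcript on mm10. Per the submitters' processing notes the tools were HISAT2 2.0.4, HOMER and DESeq2, and the tables DESeq2 gave were not analysed here. Of 24537 genes, 1644 carry another transcript in reporter than in OTII tables, so no test spans both kinds of mice. RPKM times length fell on whole reads for 99.3% to 99.9% of values below 100 reads (tolerance 0.1), which gave the depth, 16.3 to 27.5 M reads, and the reads behind each value.

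Each library was divided by a median-of-ratios factor, computed from 6796 genes that reached RPKM 1 in every one of the 17. Log2(scaled RPKM + 1) was tested two-sided with limma 3.58.1 (trend, R 4.3.3), Benjamini-Hochberg over all genes tested, threshold 0.05. The fold changes are therefore on the log2(value + 1) scale, which understates changes of low genes. A gene entered a test where the number of its libraries at 1 or above was no less than the size of the smaller group. Only genes past the threshold are said to have risen or fallen. Alternatives were a pseudocount of 0.1, deposited RPKM without scaling, no filter, voom on reads, a replicate block, all OTII groups in 1 fit and each library left out. After the headers were seen, a block by either header number or averaging by the first was added.

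The members, the 5 program lists (60 genes) and the 9 marker lists were chosen with earlier results of these data known. Named genes were all members, up to 3 called genes with the smallest p per list and comparison, all called names where a list's count is spelled out, and the 3 closest genes per member by Pearson r, leaving out histones, pseudogenes, small RNAs, receptor segments and predicted genes. A few genes that the rule names are not reported here. Creb1, Cbfb, Bach2 and Cd69 were added after their values were seen. Promoters are from RefSeq (GRCm38.p6), gene extents from GENCODE vM21.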

Additional observations from a re-analysis of the deposited data

Results flagged for a closer look

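Mean Crem differed in opposite directions with the knockout label in lymph node and culture. Neither the culture difference nor the difference between the effects passed a test. In the lymph node every knockout-labelled library was above the wild type mean, and in culture both knockout-labelled libraries were below the wild type mean (19.2 and 11.9 scaled RPKM, against 23.3 and 16.6 in wild type). The difference of the log2 changes was 0.85, and its own test did not pass (limma adjusted p = 0.161). Outlying libraries were looked for in the knockout-labelled lymph node group, the 1 group of at least 4, for 5 genes, and none passed Dixon's limit.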

How the results depend on the processing

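Of 402 checks of a member's fold change under another setting, 356 kept its direction and its side of the threshold, 32 lost a call, 2 gained one and 12 changed sign. Without the filter, 1 member was called in the airway comparison (224 genes in all), 0 in the lymph node knockout comparison and 2 in wild type lymph node against culture. With voom on reads the airway comparison called 244 genes, culture 2 and the lymph node knockout comparison 0 members. With RPKM as deposited, or with all 4 OTII groups in 1 fit (1 gene called in culture), 0 members passed in the lymph node knockout comparison. Deposited RPKM put the airway's median log2 change over all genes at -0.20, against -0.07 after scaling, and Bhlhe40 and Crem were called on that scale too. Averaging libraries that share a first header number left 257 genes in the difference between knockout effects. Voom turned Nr4a2 in the airway to -0.51. Where no reason is given, the cause was not tested.

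The titles share replicate numbers between groups, and deviations of same-numbered libraries from their group means had r from -0.323 to 0.333. In the reporter comparison r ran from 0.005 to 0.027 for like numbers and from -0.023 to -0.002 for unlike ones. With groups of 2 libraries, r for like and unlike numbers mirror each other by construction. Whether a shared number links libraries therefore cannot be told from these values, and the labels do not say. In the lymph node knockout comparison, libraries with the same second header number (-1 or -2) had r from -0.064 to 0.497, and those with different ones from -0.39 to 0.261. A replicate block then called 0 members and 636 genes in the lymph node knockout comparison, 65 genes in culture, 1932 in knockout-labelled lymph node against culture and 166 in the difference between knockout effects. It turned Prdm1 in the lymph node knockout comparison to 0.04, gave Crem an adjusted p of 0.217 there and left 1 call in its list of relatives and partners. It also ended the Runx3 calls of lymph node against culture (limma adjusted p = 0.0503 in knockout-labelled and 0.0501 in wild type cells). Lymph node libraries whose replicate number no other group in the fit shared carried no weight under that block. Those fits therefore also rested on fewer libraries. A replicate block by header number, added after the headers were seen, called 0 members in the lymph node knockout comparison and 65 genes in culture, and ended the knockout-labelled Runx3 call (limma adjusted p = 0.0532). A replicate block by second header number, added after these correlations were seen, called 1 member (Crem) and 2421 genes.

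Leaving out 1 library at a time, the airway comparison called 1 to 2 members and 113 to 554 genes (158, 163 and 113 without lymph node replicate 1, 2 or 3). The lymph node knockout comparison called 0 to 1 members and 1008 to 2716 genes (1008 and 1045 without wild type replicate 2 or 3, and 1303 without knockout-labelled replicate 4). Culture called 0 members and 0 to 65 genes (60 and 65 without knockout-labelled replicate 1 or 2). Wild type lymph node against culture called 3 members and 2194 to 4363 genes (2194, 2228 and 2292 without node replicate 1, 2 or 3), and knockout-labelled 3 to 5 members and 1703 to 4235 genes (1804 and 1703 without culture replicate 1 or 2). The difference between knockout effects called 0 members and 195 to 555 genes (285 and 256 without wild type node replicate 2 or 3, 195 without wild type culture replicate 1 and 212 without knockout-labelled culture replicate 2). Sign changes occurred in fold changes that had not passed. For Prdm1 these ran from -0.37 to 0.0864 in the airway, from -0.34 to 0.04 in the lymph node knockout comparison and from -0.0142 to 0.36 in the difference between effects. For Nr4a2 in the airway they ran from -0.17 to 1.08, for Runx3 from -0.21 to 0.13 in culture and from -0.32 to 0.0213 in the difference between effects, and for Bhlhe40 in that difference from -0.21 to 0.36.

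Depth limits Nr4a2 most, with 0 to 250 reads in reporter libraries. Culture rests on 2 libraries per genotype, and airway libraries correlated least with each other, which limits the precision of both.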

Other observations

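Node and culture OTII cells also differed in genes around the factors. Of the residency-associated list, P2rx7, the receptor for extracellular ATP, averaged 102 ± 6.45 in knockout-labelled node cells and 11.7 ± 3.30 in culture, and 78.6 ± 6.79 and 11.8 ± 0.436 in wild type cells (log2 fold changes 3.05 and 2.63, limma adjusted p = 9.71e-06 and 1.28e-05). Itgae, which encodes the CD103 integrin chain, fell in the wild type node to 2.58 ± 0.805, against 17.5 ± 2.74 in culture (limma adjusted p = 0.000197), but did not pass in knockout-labelled cells (log2 fold change -0.29, limma adjusted p = 0.428). The difference of its knockout effects was itself called (2.10 log2 units, limma adjusted p = 0.00929), and that call was lost without knockout-labelled culture replicate 2 (limma adjusted p = 0.0632) and under the replicate block. In all, 10 of 17 tested list members rose and 1 fell in knockout-labelled node cells, and 6 of 16 rose and 4 fell in wild type ones, where 29.0% and 31.0% of all genes tested were called. Of these calls 3 (Hpgds, Itga1 and Xcl1) and 2 (Hpgds and Itga1) were of genes under 1 throughout 1 of the groups.

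Genes reported as targets of the factors moved in both directions. Cd4, silenced by Runx3 in CD8 T cells, rose in wild type node cells to 374 ± 29.4, against 80.8 ± 14.3 in culture (limma adjusted p = 4.97e-05), and Il4 rose to 44.7 ± 4.75 against 8.60 ± 1.39 (limma adjusted p = 4.97e-05). Gzmb fell in knockout-labelled node cells to 2.88 ± 1.15, against 733 ± 113 in culture (limma adjusted p = 3.88e-06). Bcl6, the follicular helper factor that opposes Blimp-1, rose in the node in both genotypes, to 16.6 ± 4.00 against 4.92 ± 1.51 in knockout-labelled cells and to 19.0 ± 4.33 against 3.89 ± 1.10 in wild type cells (limma adjusted p = 0.00134 and 0.000399).

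The difference between knockout effects in node and culture was called for 5 of 17 tested residency-associated genes (Litaf, Ccr8, Itgae, Cd101 and Isg20). For each, the change from wild type to knockout-labelled cells was more positive in the node than in culture. This does not mean a higher level in the node. The count was 3 under the replicate block and 2 without knockout-labelled culture replicate 2. Rbpj was called among the relatives and partners (1.87 log2 units, limma adjusted p = 0.00442), while no residency factor passed that test.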
